A study of Homo sapiens with 4 samples.

Results

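Genes of cholesterol and fatty acid synthesis were examined in the cell line BJ-TE on Affymetrix expression arrays. BJ cells, from which the line comes, are fibroblasts of human foreskin. Cells expressed a short hairpin RNA (shRNA) that targets p73, a transcription factor of the p53 family, or the control shRNA called ns, and were collected at 100% or at 40% confluence. This gives 4 groups of 1 array each: p73 shRNA at 100%, ns shRNA at 100%, p73 shRNA at 40% and ns shRNA at 40%. The labels name no further treatment, and every group is the same line, so nothing here shows how other fibroblasts behave. The genes were given as a list of 37 symbols, and every probe set annotated to exactly 1 of them was taken. This found 60 probe sets for 32 of the 37 genes, out of 19064 single-gene probe sets for 11963 genes. Expression of FDFT1, STARD4 and ACSL3 was not analysed here, and neither was that of CYP51A1 and FADS1, whose probe sets are annotated to several genes.

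Cholesterol is built from acetyl-CoA through mevalonate, isoprenoid diphosphates, squalene and lanosterol, while fatty acids are built from malonyl-CoA and then elongated and desaturated. Both branches are controlled by the sterol regulatory element-binding proteins SREBP-1 (gene SREBF1) and SREBP-2 (gene SREBF2). SCAP escorts them from the endoplasmic reticulum to the Golgi for cleavage when sterols are scarce, and INSIG1 and INSIG2 hold SCAP back when sterols are plentiful. The genes were therefore grouped as 5 regulators, 18 enzymes of the sterol branch, 3 genes of sterol transport and 11 genes of the fatty acid branch.

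The data are 1 linear intensity per probe set and array, deposited by the authors. No group had a replicate, so a single ratio has no replicate check, and precision is limited by there being 4 arrays. Tests used an additive model of confluence and hairpin over the 4 arrays, in which the hairpins serve as repeats for confluence and the stages of confluence as repeats for the hairpin. A gene was represented by its brightest probe set and tested when its mean log2 intensity reached the median of all probe sets, about intensity 111. This kept 30 of the 32 measured genes and 6759 genes in all. Of the fibroblast markers checked, 15 of 16 lay above this limit. No adipocyte marker did so, 0 of 11, and the highest intensity of any of them was 103. Above it were 0 of 8 endothelial markers and 2 of 12 epithelial markers, the keratins KRT10 and KRT18. The 1 single-gene probe set of TP73, the targeted gene, lay near the bottom of the scale, at 2.04 (p73 shRNA) and 1.65 (ns shRNA) at 100% confluence and at 2.09 and 1.68 at 40%. It therefore gives no check of the hairpin.

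Before the values, 5 upstream regions are shown, because the genes they precede span the regulators, the sterol branch and the fatty acid branch and because 4 of the 5 genes rose together at confluence. Each is the 250 bases before a transcription start listed by RefSeq in build GRCh38.p14, written from 5′ to 3′ on the strand of the gene. They lie at chr22:41832855-41833104 (SREBF2, plus strand), chr7:155297628-155297877 (INSIG1, plus), chr5:43313413-43313662 (HMGCS1, minus), chr21:46228775-46229024 (LSS, minus) and chr10:100346983-100347232 (SCD, plus). Capitals mark the sterol regulatory element, searched as TCACNCCAC, and the binding box of NF-Y, a factor known to act beside SREBPs, searched as CCAAT. Both strands were searched, so the NF-Y box also appears as ATTGG.
SREBF2: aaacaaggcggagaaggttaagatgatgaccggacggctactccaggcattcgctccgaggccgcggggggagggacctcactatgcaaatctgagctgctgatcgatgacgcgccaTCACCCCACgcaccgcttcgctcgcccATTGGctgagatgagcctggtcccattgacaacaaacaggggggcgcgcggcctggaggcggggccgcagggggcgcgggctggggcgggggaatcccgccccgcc
INSIG1: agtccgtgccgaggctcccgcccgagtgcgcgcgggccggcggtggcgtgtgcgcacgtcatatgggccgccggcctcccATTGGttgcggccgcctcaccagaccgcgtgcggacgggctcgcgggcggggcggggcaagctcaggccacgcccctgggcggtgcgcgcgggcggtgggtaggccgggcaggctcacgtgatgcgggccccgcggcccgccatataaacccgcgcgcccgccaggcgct
HMGCS1: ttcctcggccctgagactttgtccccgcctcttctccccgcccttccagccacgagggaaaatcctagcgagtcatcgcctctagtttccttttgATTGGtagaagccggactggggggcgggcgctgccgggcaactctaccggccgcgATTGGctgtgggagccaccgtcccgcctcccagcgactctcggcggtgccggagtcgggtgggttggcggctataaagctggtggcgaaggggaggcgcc
LSS: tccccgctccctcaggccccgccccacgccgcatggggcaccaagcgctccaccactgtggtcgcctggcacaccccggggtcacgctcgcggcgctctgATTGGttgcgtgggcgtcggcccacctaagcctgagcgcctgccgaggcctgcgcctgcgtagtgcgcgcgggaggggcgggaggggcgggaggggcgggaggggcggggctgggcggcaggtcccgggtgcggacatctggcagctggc
SCD: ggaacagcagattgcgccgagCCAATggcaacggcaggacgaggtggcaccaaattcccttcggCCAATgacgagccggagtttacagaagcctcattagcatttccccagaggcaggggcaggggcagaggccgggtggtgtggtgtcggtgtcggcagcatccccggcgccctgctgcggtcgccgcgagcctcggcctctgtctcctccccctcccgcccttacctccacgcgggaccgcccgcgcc

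The SREBF2 window holds the sterol element from 133 to 125 bases before the start and an NF-Y box from 106 to 102 bases before it. The other 4 windows shown hold NF-Y boxes and no match to the sterol element as spelled here. The set of RefSeq starts used here covers 33 of the 37 genes with 49 starts, some of which overlap. It holds no entry for ACAT2, FDFT1, SQLE and FASN, which are therefore not in the shares below. The shares do include STARD4, ACSL3, CYP51A1 and FADS1, whose expression was not analysed. An NF-Y box stood in 15 of 20 windows of the sterol branch (75%), in 6 of 19 of the fatty acid branch (31.6%) and in 11240 of all 35116 windows (32.0%). The sterol element stood in 2 of the 49 windows, those of SREBF2 and of a start of ACSL1, and in 0.883% of all windows. The box of the factor Sp1, GGGCGG on either strand, stood in 40 of the 49 windows (81.6%) and in 42.6% of all windows. The palindromic E-box CACGTG stood in 5 of the 49 windows (10.2%) and in 6.34% of all windows. Counted once per gene, an NF-Y box was found for 13 of 15 sterol enzymes, 5 of 10 fatty acid genes and 10102 of all 27305 genes. Among tested genes that rose at confluence, INSIG1, HMGCS1, IDI1, FDPS, LSS, MSMO1, HSD17B7, DHCR7, ACACA and SCD had a box. SREBF1, INSIG2, FADS2 and LPIN1 rose and had none. Of those that did not pass, SREBF2, MVK, NSDHL, EBP, SC5D, NPC2, ACSL1 and ELOVL5 had a box. SCAP, PMVK, NPC1, ACSL4 and ELOVL6 had none. The box thus stood before genes of either outcome. No motif is contained in another, though neighbouring matches can share bases, and a match describes the sequence without showing that a factor binds.

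The first comparison set 100% against 40% confluence, the stages that the study's design text names. INSIG1, INSIG2, SREBF1 and SCD showed the largest changes among the lipid synthesis genes tested, and 8 sterol enzymes rose by less. Of the 30 tested genes, 16 rose and 0 fell in the additive model (limma, Benjamini-Hochberg adjusted p below 0.05). Over all 6759 genes 20.4% rose and 16.1% fell, 36.6% in all. At an unadjusted p below 0.05 the limma counts were 17 and 0 of the 30, and 1651 and 1367 of all 6759 genes. Without the intensity trend 15 of the 30 rose and 0 fell, where 18.3% of all genes rose and 12.3% fell, 30.6% in all. By size alone, 8 of the 30 were at least 1.5-fold higher with both hairpins and 0 were lower, where 9.96% of all genes were higher and 5.68% lower. On intensities, both arrays at 100% lay above both at 40% for 19 of the 30, where 33.7% of all genes did so. The opposite order held for 1 of the 30, ACAT2, and for 30.8% of all genes. In bulk RNA, fewer cells of a type and less RNA per cell cannot be told apart.

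**Figure D1:**
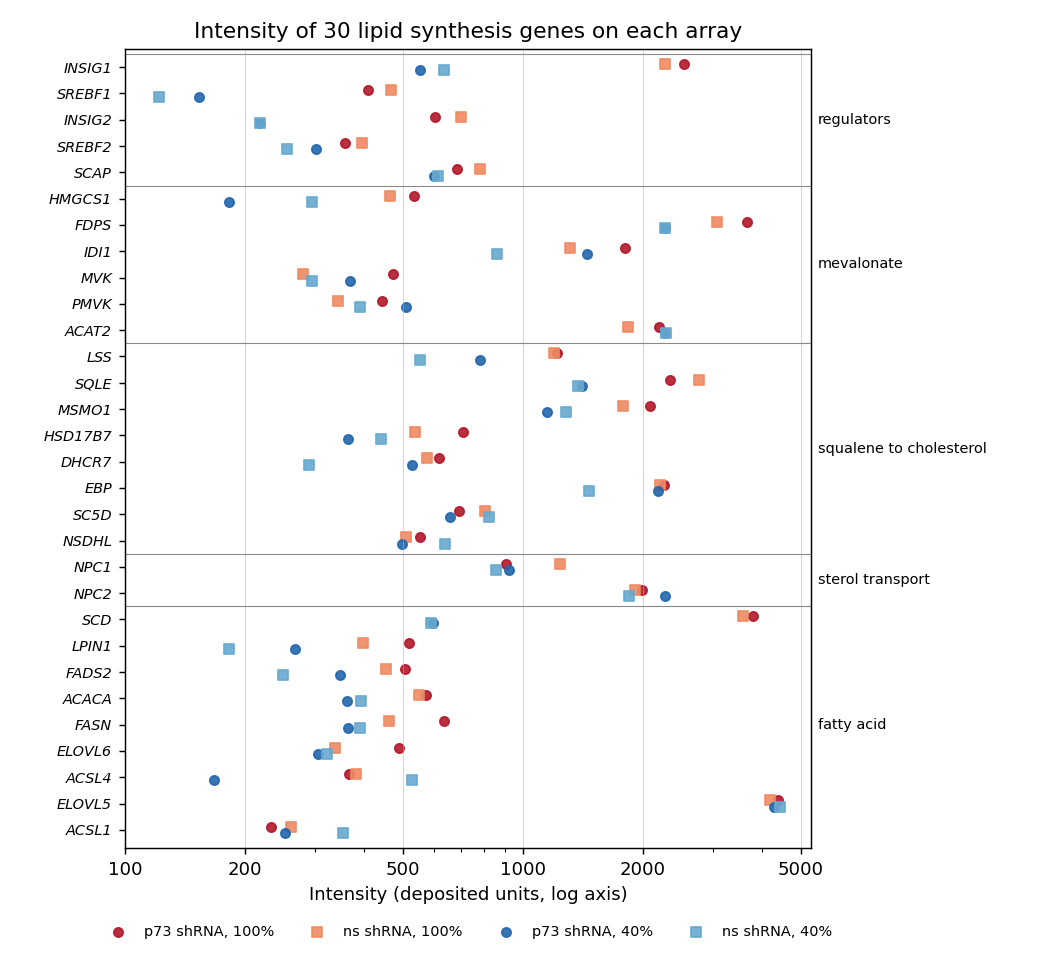
Intensity of the 30 tested genes (log axis, deposited units) on each of the 4 arrays, red or orange for 100% and blue for 40% confluence, circles for p73 shRNA and squares for ns shRNA, grouped by role. For SCD, INSIG1, SREBF1 and INSIG2 the red and orange symbols stand far to the right of both blue ones, while those of ELOVL5 lie close together, between 4183 and 4435.

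Among the regulators, INSIG1, the sterol-sensing anchor of SCAP and itself a known SREBP target, rose most. Its intensity was 2541 with p73 shRNA and 2278 with ns shRNA at 100% confluence, against 552 with p73 shRNA and 633 with ns shRNA at 40%. Both confluent arrays were well above both others, and the average log2 change was 2.00 (SE 0.16, limma adjusted p 8.51e-34), a 4.01-fold rise. INSIG2, its homologue, had 603 (p73 shRNA) and 701 (ns shRNA) at 100%, against 219 with either hairpin at 40%. The arrays at 40% hardly differed for INSIG2, and its log2 change was 1.52 (SE 0.20, limma adjusted p 2.89e-12). SREBF1 had 408 (p73 shRNA) and 467 (ns shRNA) at 100%, against 154 and 122 at 40%, a log2 change of 1.59 (SE 0.23, limma adjusted p 2.23e-10). The annotation does not say which SREBF1 transcripts its 1 probe set reads.

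The other regulators did not pass the test. SREBF2 had 357 (p73 shRNA) and 393 (ns shRNA) at 100%, against 302 and 256 at 40%, a log2 change of 0.42 (SE 0.21, limma adjusted p 0.112). SCAP had 682 (p73 shRNA) and 783 (ns shRNA) at 100%, against 600 and 614 at 40%, a log2 change of 0.26 (SE 0.18, limma adjusted p 0.243). For both genes the confluent arrays were still the higher ones, so the groups did not overlap for any of the 5 regulators. Over all genes 33.7% had that order, so it is common. In all, 3 of the 5 regulators rose. This count and those of the branches below are to be read against the 20.4% of all genes that rose.

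In the mevalonate part of the sterol branch, 3 of 6 tested enzymes rose. HMGCS1, the cytosolic HMG-CoA synthase, had 534 (p73 shRNA) and 464 (ns shRNA) at 100%, against 183 and 296 at 40%. All 4 values differed and the arrays at 40% lay apart, so the log2 ratio was 1.49 with p73 shRNA and 0.63 with ns shRNA (average 1.06, SE 0.21, limma adjusted p 5.12e-06). The second HMGCS1 probe set had closer ratios, 0.77 with p73 shRNA and 0.67 with ns shRNA. FDPS, the farnesyl diphosphate synthase, had 3664 (p73 shRNA) and 3077 (ns shRNA) at 100%, against 2275 and 2279 at 40%, a log2 change of 0.56 (SE 0.14). IDI1, the isopentenyl diphosphate isomerase, rose by 0.46 on the log2 scale (SE 0.16, limma adjusted p 0.0128), a call lost without the intensity trend (limma adjusted p 0.0602).

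The remaining mevalonate enzymes showed no such change. ACAT2, the cytosolic acetoacetyl-CoA thiolase, had 2202 (p73 shRNA) and 1837 (ns shRNA) at 100%, against 2272 and 2294 at 40%, a log2 change of -0.18. MVK and PMVK, the kinases that act in turn on mevalonate, averaged 0.14 and -0.18 on the log2 scale. MVD, the decarboxylase of the next step, lay below the brightness limit, with 73.9 (p73 shRNA) and 23.2 (ns shRNA) at 100%, against 121 and 84.8 at 40%. MVD was not tested, and its values were lower at 100% with either hairpin.

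From squalene to cholesterol, 5 of 8 tested enzymes rose. SQLE, the squalene epoxidase, had 2344 (p73 shRNA) and 2773 (ns shRNA) at 100%, against 1406 and 1374 at 40%, a log2 change of 0.87 (SE 0.15, limma adjusted p 1.11e-07). LSS, the lanosterol synthase, had 1221 (p73 shRNA) and 1195 (ns shRNA) at 100%, against 780 and 550 at 40%, also a log2 change of 0.87 (SE 0.17, limma adjusted p 2.33e-06). The confluent arrays agreed closely for LSS, and the spread lay between the arrays at 40%. MSMO1, a sterol methyl oxidase, had 2085 (p73 shRNA) and 1782 (ns shRNA) at 100%, against 1150 and 1287 at 40%, a log2 change of 0.66 (SE 0.15, limma adjusted p 0.000145).

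HSD17B7, a sterol keto-reductase, and DHCR7, the reductase of the last step to cholesterol, rose by similar amounts. On the probe sets used, the hairpins had opposite weights. HSD17B7 had 708 (p73 shRNA) and 537 (ns shRNA) at 100%, against 363 and 440 at 40%, so its log2 ratio was 0.94 with p73 shRNA and 0.28 with ns shRNA (average 0.61, SE 0.19, limma adjusted p 0.00544). Its probe set is of the kind that shares probes with other transcripts, and pseudogenes of HSD17B7 exist, so its identity is uncertain. DHCR7 had 616 (p73 shRNA) and 575 (ns shRNA) at 100%, against 526 and 290 at 40%, a log2 ratio of 0.22 with p73 shRNA and 0.96 with ns shRNA (mean of both 0.59, SE 0.19, limma adjusted p 0.00789). The second DHCR7 probe set had 0.62 with p73 shRNA and 0.60 with ns shRNA, so it did not repeat the hairpin difference of the first. The difference between hairpins was not tested for either gene.

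EBP, SC5D and NSDHL, 3 enzymes that rework the sterol ring system, did not pass, with log2 changes of 0.32, 0.02 and -0.09. TM7SF2, a sterol reductase, lay below the brightness limit and was not tested. It had 110.5 (p73 shRNA) and 147.6 (ns shRNA) at 100%, against 7.19 and 40.1 at 40%, so both confluent arrays were brighter. NPC1 and NPC2, which pass cholesterol out of the lysosome, averaged 0.25 and -0.07 on the log2 scale, and 0 of the 2 passed in limma, also at an unadjusted p below 0.05.

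**Figure D2:**
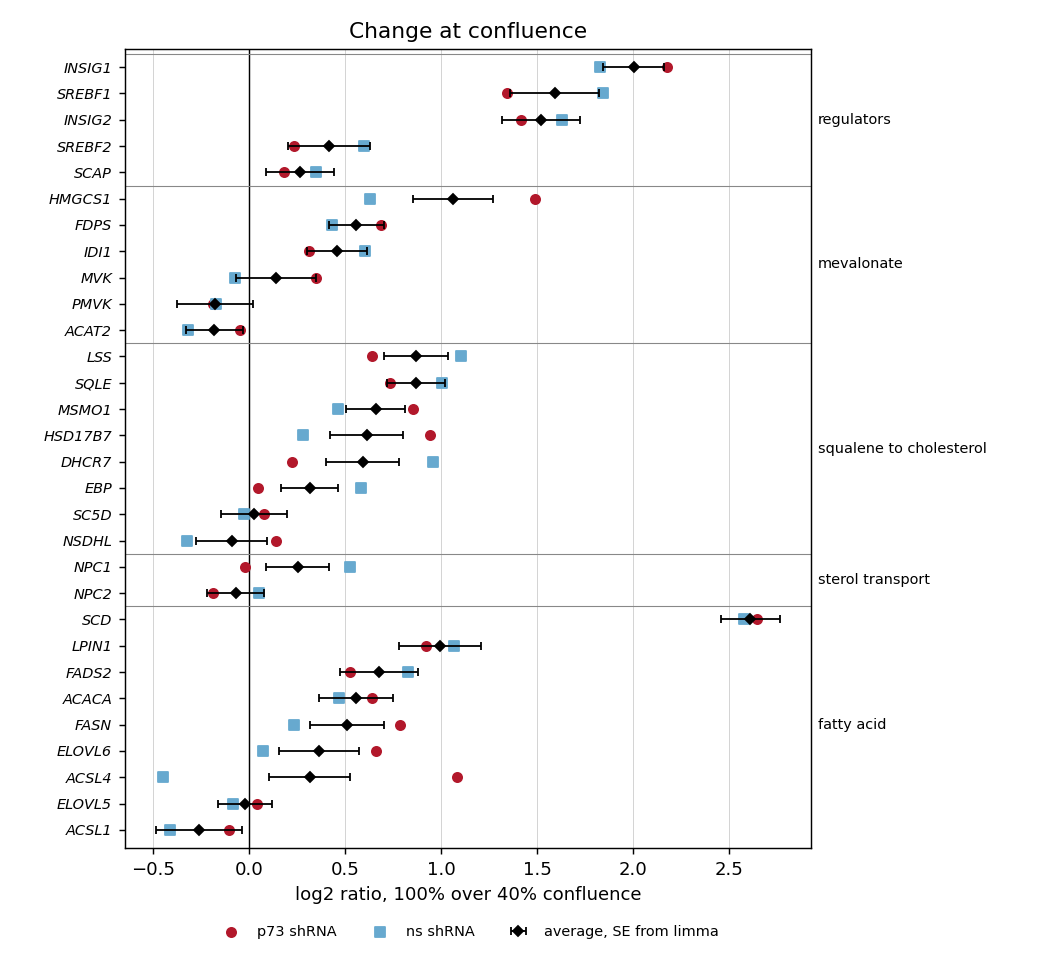
Log2 ratio of 100% over 40% confluence for the 30 tested genes, as red circles with p73 shRNA, blue squares with ns shRNA and black diamonds for the average with its SE from limma. SCD and INSIG1 stand farthest to the right with both hairpins, and the symbols of ACSL4 lie on opposite sides of 0, at 1.08 and -0.45.

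In the fatty acid branch, 5 of 9 tested genes rose. SCD, the stearoyl-CoA desaturase that makes oleate, had the largest change of all 30 genes. Its intensity was 3792 with p73 shRNA and 3569 with ns shRNA at 100%, against 596 and 589 at 40%. The pairs hardly differed within a stage, and the log2 change was 2.61 (SE 0.15, limma adjusted p 1.38e-60), a 6.11-fold rise. LPIN1, a phosphatidate phosphatase of glycerolipid synthesis that also acts as a coactivator, had 518 (p73 shRNA) and 396 (ns shRNA) at 100%, against 268 and 183 at 40%. The log2 change of LPIN1 was 0.99 (SE 0.21, limma adjusted p 3.41e-05), and with the mean of its probe sets it was 0.42 and did not pass (limma adjusted p 0.172). That mean includes a probe set below the brightness limit, with a log2 change of -0.37. The other LPIN1 probe set above the limit rose by 0.65 (limma adjusted p 0.0196 in the fit on probe sets).

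The other genes that rose did so by less. FADS2, the desaturase that starts polyunsaturated fatty acid synthesis, had 505 (p73 shRNA) and 453 (ns shRNA) at 100%, against 347 and 250 at 40%, a log2 change of 0.68 (SE 0.20, limma adjusted p 0.00423). ACACA, the acetyl-CoA carboxylase that makes malonyl-CoA, had 569.9 (p73 shRNA) and 549 (ns shRNA) at 100%, against 362 and 393 at 40%, a log2 change of 0.55 (SE 0.19, limma adjusted p 0.0147). FASN, the fatty acid synthase, had 635 (p73 shRNA) and 461 (ns shRNA) at 100%, against 364 and 390.3 at 40%, a log2 change of 0.51 (SE 0.19, limma adjusted p 0.0269). ACACA and FASN had changes close in size to that of FDPS in the sterol branch. Their changes were smaller than that of SCD by many times their SE.

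ELOVL6, the elongase of saturated fatty acids, had 489 (p73 shRNA) and 338 (ns shRNA) at 100%, against 305 and 322 at 40%, and did not pass (log2 change 0.36, SE 0.21, limma adjusted p 0.157). ELOVL5, the elongase of polyunsaturated fatty acids, had 4385 (p73 shRNA) and 4183 (ns shRNA) at 100%, against 4269 and 4435 at 40%, a log2 change of -0.02 (SE 0.14). ACSL1, a long-chain acyl-CoA synthetase, had a log2 change of -0.26, and its relative ACSL4, which prefers arachidonate, of 0.32. Neither passed.

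Of the 16 calls at confluence, those of INSIG1, FDPS, SQLE, LSS, MSMO1 and SCD held under all 9 alternative settings. Those of SREBF1, INSIG2 and HMGCS1 held under the 8 run for them, as these genes lie below the stricter brightness filter and were not tested there. Those of IDI1, HSD17B7, DHCR7, FASN, ACACA, FADS2 and LPIN1 were each lost in at least 1. The size of a limma adjusted p depended strongly on the setting. For SCD it was 1.38e-60 in the main fit, 1.77e-08 without the intensity trend and 3.12e-05 without the hairpin in the model. For INSIG1 these were 8.51e-34, 4.32e-07 and 0.000195. Other values moved with confluence too. The beta-actin control's intensity ratio of 3' over 5' probe sets was 1.38 (p73 shRNA) and 1.47 (ns shRNA) at 100%, against 1.09 and 1.24 at 40%. For GAPDH this ratio was 1.02 and 1.02, against 0.98 and 0.93. The median intensity of the array was 120 and 122, against 105 and 106. After quantile normalization, which makes the arrays' distributions equal, 1 of the 16 calls was lost, that of FASN (limma adjusted p 0.0711). The fibroblast markers moved as well. Of the 15 fibroblast markers tested, 9 rose and 2 fell. The intensities of all 16 measured summed to 112048 (p73 shRNA) and 107550 (ns shRNA) at 100%, against 99969 and 89028 at 40%. Adipocyte marker intensities summed to 249 and 195 at 100%, against 258 and 315 at 40%. The part of marker levels and of RNA quality in the lipid gene changes was not tested.

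Set side by side, the branches had almost the same median change at confluence. The median log2 change was 0.51 over the 14 tested sterol enzymes and 0.51 over the 9 fatty acid genes, against 1.52 over the 5 regulators and 0.01 over all 6759 genes. The sterol enzymes rose in 8 of 14 cases and the fatty acid genes in 5 of 9, where 20.4% of all genes rose. These counts depended on the setting: without the hairpin in the model they were 5 of 14 and 2 of 9. Among the tested genes, sterol enzymes ranged from -0.18 to 1.06 and fatty acid genes from -0.26 to 2.61, where SCD alone exceeded 1. With the untested sterol enzymes MVD and TM7SF2 added, the sterol range was -1.05 to 2.16, so the narrower range depends on the brightness limit. With p73 shRNA the median was 0.33 for sterol enzymes and 0.66 for fatty acid genes, and with ns shRNA it was 0.45 and 0.23. The order of the branches therefore differed between the hairpins, a difference that was not tested. The confluence ratio was larger with p73 shRNA for 7 of 9 fatty acid genes and for 8 of 14 sterol enzymes, where 50.5% of all genes had the larger ratio with p73 shRNA. No test of a list was made, and these medians over genes that passed the brightness limit are a description. With each gene taken as the mean of its probe sets, the sterol median exceeded the fatty acid median by 0.22. With the measured genes below the limit added, the medians were 0.51 over 16 sterol enzymes and 0.51 over 9 fatty acid genes.

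**Figure D3:**
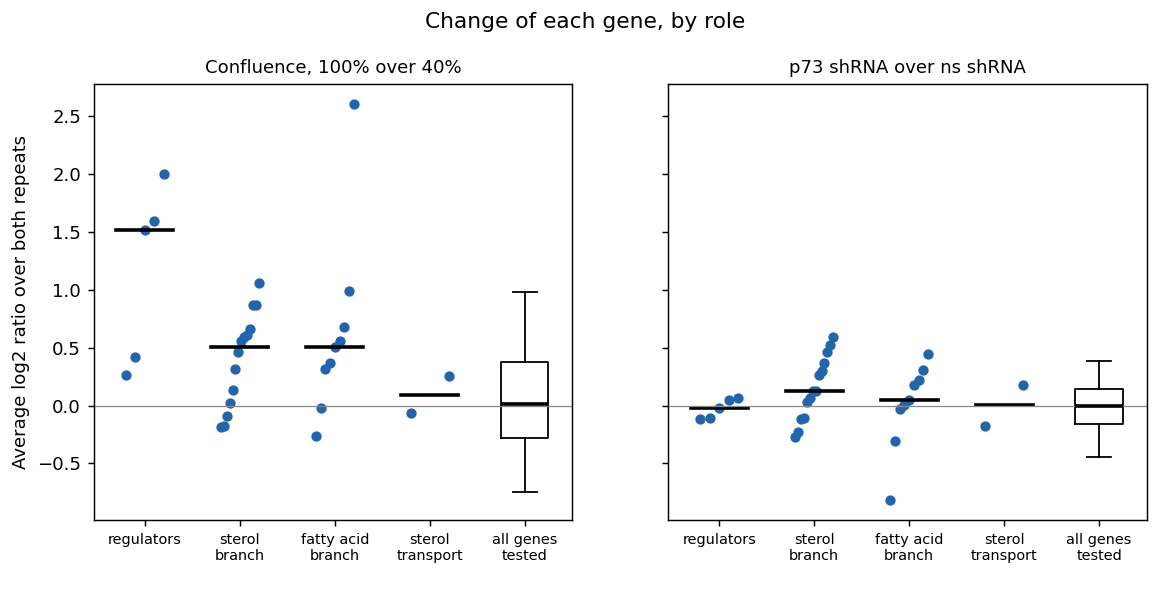
Average log2 ratio of each tested gene by role, for 100% over 40% confluence (left) and p73 shRNA over ns shRNA (right), with black lines at the medians. The box for all 6759 genes spans the middle 50% and its whiskers the 5th to 95th percentile. The regulators' median of 1.52 at confluence lies above those of both branches, and the medians for p73 shRNA lie near 0.

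The second comparison, p73 shRNA against ns shRNA, asks which of these genes differ when p73 is targeted. Only IDI1 and ACSL4 passed among the 30 tested genes: IDI1 rose and ACSL4 fell (limma, Benjamini-Hochberg adjusted p below 0.05). Over all genes 1.14% rose and 1.58% fell, 2.72% in all, so 1 gene of 30 each way is near the background. At an unadjusted p below 0.05 the limma counts were 5 risen and 1 fallen of the 30. Over all 6759 genes they were 410 risen and 512 fallen. Without the intensity trend 0 of the 30 rose and 0 fell in limma, where 0.385% of all genes rose and 0.710% fell, 1.09% in all. In that setting 4 rose and 1 fell of the 30 at an unadjusted p below 0.05 in limma, a count not taken over all genes.

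IDI1 had intensities of 1804 with p73 shRNA and 1318 with ns shRNA at 100% confluence, and of 1450 with p73 shRNA and 863 with ns shRNA at 40%. Both p73 shRNA arrays lay above both ns shRNA arrays. The average log2 change was 0.60 (SE 0.16, limma adjusted p 0.00941), a 1.51-fold rise, with log2 ratios of 0.45 at 100% and 0.74 at 40%. The second IDI1 probe set, which also shares probes with other transcripts, averaged 0.32 on the log2 scale (limma adjusted p 0.331 in the fit on probe sets). The IDI1 call was lost without the intensity trend (limma adjusted p 0.142) and with the mean of probe sets (limma adjusted p 0.136).

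ACSL4 had 367 with p73 shRNA and 382 with ns shRNA at 100% confluence, and 167 with p73 shRNA and 526 with ns shRNA at 40%. The confluent arrays hardly differed, and the p73 shRNA array at 40% was by far the lowest of the 4. The log2 ratio was -0.06 at 100% and -1.59 at 40% (mean of both -0.82, SE 0.21, limma adjusted p 0.00761), so the call rests on the pair of arrays at 40%, which hold the lowest and the highest of the 4 values. ACSL4 has 1 single-gene probe set and therefore no second reading. Its call was lost without the intensity trend (limma adjusted p 0.165) and after quantile normalization (limma adjusted p 0.0934). At confluence its log2 ratio of 1.08 with p73 shRNA and -0.45 with ns shRNA ran in opposite directions by at least 1.2-fold each, as did those of 2.86% of all genes. Among the 30 genes, HSD17B7 alone did so for the p73 shRNA ratio, as did 3.97% of all genes. The same p73 shRNA array at 40% had the brightest top end, with a 99th percentile of 13157 against 10196 to 11420 on the other arrays. The ns shRNA array at 40% stood apart in the median of the ribosomal RNA controls, 699 against 279 to 348 on the other arrays. With p73 shRNA, 2 of the 15 fibroblast markers tested rose (THY1, VIM) and 2 fell (PDGFRA, LUM). Whether these values bear on IDI1 or ACSL4 was not tested.

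**Figure D4:**
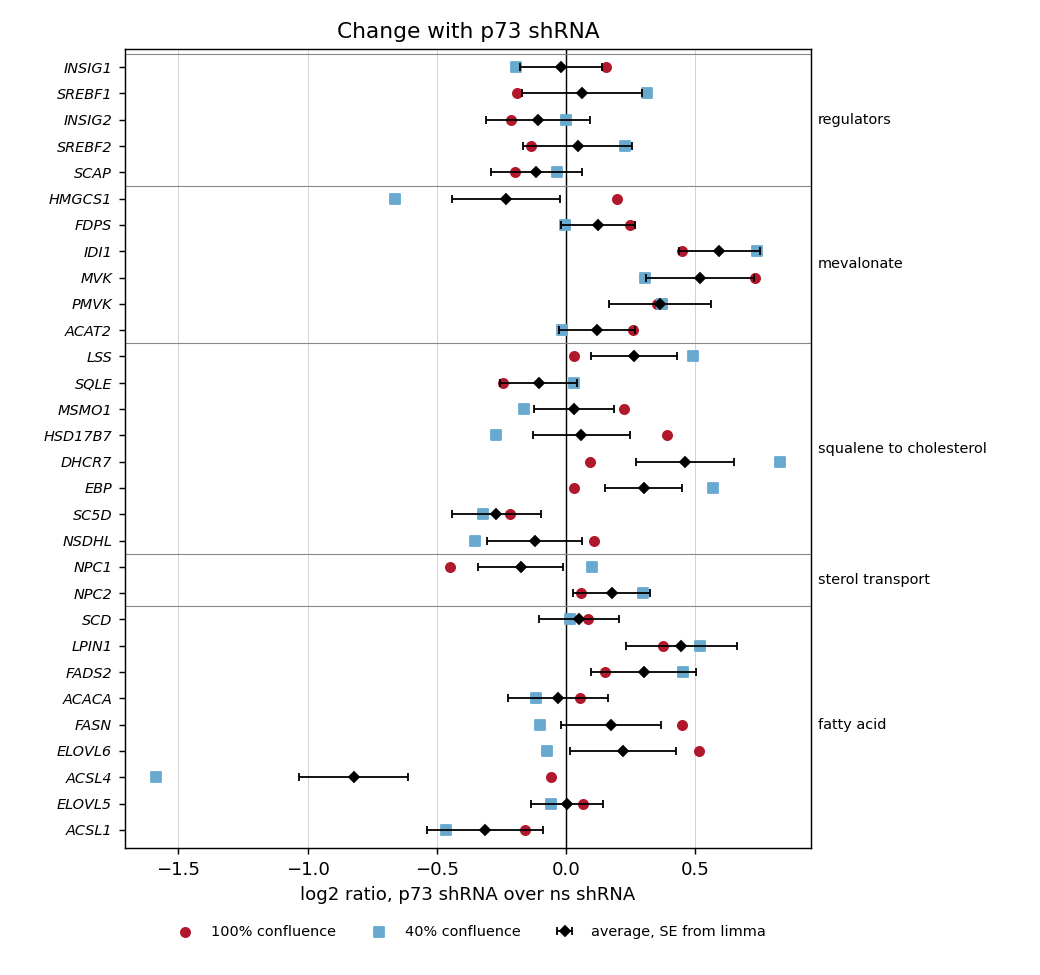
Log2 ratio of p73 shRNA over ns shRNA for the 30 tested genes, as red circles at 100% confluence, blue squares at 40% and black diamonds for the average with its SE from limma. Most symbols lie within 0.5 of 0, and the ACSL4 square at -1.59 stands apart from its circle at -0.06.

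The enzymes that act before IDI1 in the mevalonate pathway differed in direction with p73 shRNA, and none that was tested passed. HMGCS1 averaged -0.23 on the log2 scale and ACAT2 0.12. MVK had 473 (p73 shRNA) and 280 (ns shRNA) at 100%, and 368 and 295 at 40%, an average log2 change of 0.52 (SE 0.21, limma adjusted p 0.179). PMVK had 444 (p73 shRNA) and 344 (ns shRNA) at 100%, and 507 and 389 at 40%, an average of 0.36 (SE 0.20, limma adjusted p 0.413). MVD, below the brightness limit and not tested, was brighter with p73 shRNA at both stages. The p73 shRNA arrays lay above both ns shRNA arrays for 4 of the 30 tested genes, MVK, PMVK, IDI1 and NPC2, where 10.5% of all genes did so. They lay below both for 3 of the 30, SC5D, ACSL1 and ACSL4, where 10.9% of all genes did so.

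The genes with the strongest confluence changes had p73 shRNA values near 0. The average log2 change with p73 shRNA was 0.05 for SCD (SE 0.15), -0.02 for INSIG1 (SE 0.16), -0.11 for INSIG2 (SE 0.20) and 0.06 for SREBF1 (SE 0.23). None of the 5 regulators passed in limma, also at an unadjusted p below 0.05. HMGCS1 had a log2 ratio of 0.20 at 100% and -0.66 at 40%, and DHCR7 of 0.10 at 100% and 0.83 at 40%, and neither passed. Their second probe sets had -0.12 at 100% and -0.22 at 40% (HMGCS1) and -0.01 and -0.03 (DHCR7). The median with p73 shRNA was 0.12 over the sterol enzymes, 0.05 over the fatty acid genes and 0.00 over all genes. No tested gene of either branch was at least 1.5-fold the same way at both stages with p73 shRNA, where 0.473% of all genes were higher and 0.755% lower by that measure.

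Genes with several probe sets allow a check within an array. In the fit on probe sets, 25 of 48 rose at confluence and 1 fell, where 19.6% of all 11108 probe sets rose and 15.8% fell. Of the 14 genes with more than 1 probe set above the brightness limit, 10 had the same direction of confluence change in all of them. All 3 INSIG1 probe sets rose, with log2 changes from 1.69 to 2.00, and all 3 of SCD above the limit, with 1.54 to 2.61. The SQLE probe sets had 0.87, 0.62 and 0.19, of which the last did not pass in the fit on probe sets (limma adjusted p 0.537). Direction differed within ACACA, EBP, MVK and NSDHL. The second ACACA probe set had a log2 change of -0.42 against 0.55 for the brightest, and 1 of 3 EBP probe sets fell (log2 change -0.58, limma adjusted p 0.0360 in the fit on probe sets) while another rose by 0.46. With the mean of its probe sets ACACA had a log2 change of 0.07 and did not pass (limma adjusted p 0.823). The values of ACACA and EBP are uncertain for that reason.

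**Figure D5:**
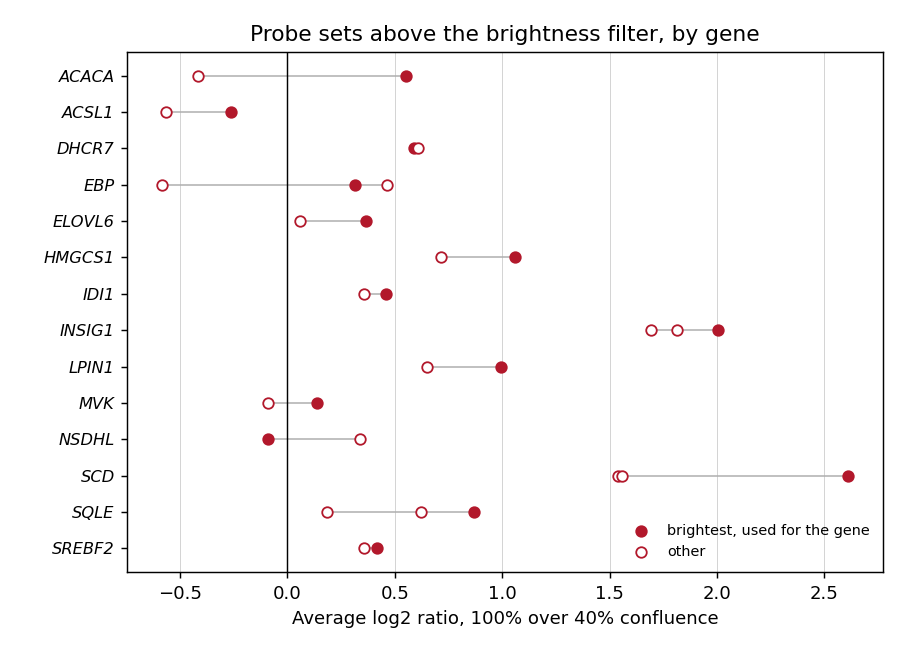
Average log2 ratio of 100% over 40% confluence for each probe set above the brightness limit, for the 14 genes with more than 1; filled circles are the brightest probe set, used for the gene, and open circles the others. INSIG1, SCD and HMGCS1 lie wholly right of 0, while ACACA and EBP span it.

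Neighbouring lipid pathways were taken from separate lists, to be read against the 20.4% of all genes that rose and the 16.1% that fell at confluence. Of 18 other genes of sterol and isoprenoid metabolism, 3 rose and 4 fell, with a median log2 change of 0.04. MYLIP, a ubiquitin ligase of lipoprotein receptors and known target of the sterol receptor LXR, had 355 (p73 shRNA) and 485 (ns shRNA) at 100%, against 121 and 77.8 at 40% (log2 change 1.97, SE 0.25, limma adjusted p 9.09e-14). PDSS1 and DHDDS, which make the isoprenoid chains of ubiquinone and dolichol, fell by 0.85 and 0.81 on the log2 scale. MBTPS2, the protease that completes SREBP cleavage, fell too (log2 change -0.68, limma adjusted p 0.0471).

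Of 16 other genes of fatty acid and glycerolipid synthesis, 1 rose, the reductase TECR (log2 change 0.38), a call lost without the intensity trend (limma adjusted p 0.112). In that list 2 fell (median 0.14): HACD3, a dehydratase of fatty acid elongation (-0.55), and the desaturase family gene FADS3 (-0.48). Of 21 genes of fatty acid oxidation 3 rose and 2 fell (median 0.18): HADH, a mitochondrial dehydrogenase of the pathway, rose by 1.12 on the log2 scale, and the carnitine carrier SLC25A20 fell by 0.63. Of 10 lipid droplet genes 1 rose, HILPDA, a hypoxia-inducible lipase inhibitor (log2 change 1.22), and 4 fell, including ABHD5, a lipase activator (-0.92). With p73 shRNA, the acyltransferase AGPAT2 rose (log2 change 0.56, limma adjusted p 0.0491) and the dehydratase HACD2 fell (log2 change -0.51, limma adjusted p 0.0417). Both calls were lost without the intensity trend, and no other gene of these 4 lists passed with p73 shRNA.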

How the data were processed

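Per the labels, trizol was used to extract total RNA, which was labelled with biotin for hybridisation under Affymetrix's protocol. The authors deposited 1 linear intensity per probe set and array. The sources used here do not give the software behind these values. From the values, each array's mean is 500.1 to 500.2 after trimming 2% at either end, so the values were used as deposited; a shift common to most genes would not show.

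Groups came from sample titles, and no label tells whether cultures were separate. The only residual in the fit is the difference between the hairpins' confluence ratios. The p-values are set against that difference, pooled over genes of like brightness. It may be technical, and a real difference between the hairpins would count as noise. Of 22277 probe sets, 62 controls were left out, 19064 had 1 gene, 1043 several and 2108 were not listed; 19052 were matched by Entrez ID. Intensities became log2(intensity + 11.6), where 11.6 is the 20th percentile, which understates changes of dim genes. The fit used limma 3.58.1 in R 4.3.3, with confluence and shRNA as additive terms, a trend of variance with intensity and Benjamini-Hochberg adjustment of two-sided p-values over 6759 genes. It has 1 residual degree of freedom and infinite prior degrees of freedom, so SEs come from the average spread at a gene's brightness; with no trend they were 15.8. The fit was also run on simulated data with normal noise, few changed genes and the same confluence effect with both hairpins. As 36.6% of genes were called at confluence here, that setting differs from these data and gives no error rate for them.

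The genes, lists and rules were chosen with earlier results of these data known. Values on all 4 arrays are given for the regulators, the 6 largest changes of each branch at confluence, genes called with p73 shRNA and the 2 genes of each branch that differed most between hairpins. Up to 4 genes of other lists are named by size; others complete a count. Alternatives are given in the closing section. Sequences are RefSeq's, build GRCh38.p14. Figures used matplotlib 3.10.9.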

Additional observations from a re-analysis of the deposited data

Results flagged for a closer look

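For 2 genes the single ratios ran in opposite directions by at least 1.2-fold each, a difference that was not tested because each group has 1 array. The confluence ratio of ACSL4 was 1.08 on the log2 scale with p73 shRNA and -0.45 with ns shRNA, and 2.86% of all genes met the same criterion at confluence. The p73 shRNA ratio of HSD17B7 was 0.39 on the log2 scale at 100% confluence and -0.27 at 40%, and 3.97% of all genes met it for p73 shRNA.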

How the results depend on the processing

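Up to 9 alternatives were run: 7 for the neighbouring lists, and 8 for genes that the stricter filter or the averaging of probe sets left below the brightness limit. Of 276 values of single genes, 247 kept their direction and side of the threshold, 24 lost the call and 1, NPC1 at confluence with the mean of probe sets, gained it. The other 4 were not called and changed sign near 0: NSDHL (0.12) and SC5D (-0.19) with averaged probe sets, SC5D (-0.01) and ELOVL5 (0.04) after quantile normalization. No called value changed sign. Sterol enzymes risen at confluence were 5 without the hairpin in the model. Fatty acid genes risen were 3 without the brightness filter and 3 with it at the 70th percentile, 2 with averaged probe sets and 2 without the hairpin in the model; in the fit on probe sets 8 probe sets rose. Regulators risen were 1 with the stricter filter, which tests fewer genes, and 5 probe sets in the fit on probe sets, where 1 probe set of any gene fell. Counting genes at least 1.5-fold the same way in both ratios gave 8 at confluence, against 16 called, and 0 with p73 shRNA, against 2 called.

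With p73 shRNA the limma count of lipid synthesis genes risen was 0 without the brightness filter, with averaged probe sets, without the intensity trend and without confluence in the model, and the count fallen was 0 in those 4 settings, after quantile normalization and with the stricter filter. At an unadjusted p below 0.05 these limma settings gave 0 to 5 risen and 0 to 2 fallen. The fatty acid median with p73 shRNA was 0.18 in the fit on probe sets, and the sterol minus fatty acid difference of medians 0.0356 with the mean of probe sets and -0.0526 in the fit on probe sets. Genes called in the neighbouring lists were 9 without the filter and 10 without the hairpin at confluence, against 20; with p73 shRNA they were 1 with the higher pseudocount and with the stricter filter, and 0 after quantile normalization, without the filter, without the trend and without confluence, against 2, with 0 to 6 risen and 0 to 7 fallen at an unadjusted p below 0.05 in limma in those 4 settings. The cause was not tested. With 1 array per group, no array can be left out and tested. No paired analysis was possible by replicate number, because each group has 1 array; the additive model itself compares confluence within a hairpin and hairpins within a stage, and the settings without the other factor drop that pairing. A gene below the brightness limit is not shown to be absent.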
